A study of Homo sapiens with 4 samples.

Results

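The chromatin regions described here held a summit among the strongest 10% of every ATAC-seq library in the study, in enzalutamide-sensitive and in enzalutamide-resistant prostate cancer cells alike. A window reaching 250 bp to each side was laid around every summit, and windows that overlapped, from whichever library, were joined into a region. A region was kept where its best summit reached percentile 90 in each of the 4 libraries, a summit's percentile being the share of summits in the same list that score no higher. This gave 3080 member regions out of 151102 merged regions (2.04%) and out of the 31869 regions with a summit in all 4 libraries, called shared regions below (9.66%). The scores chose the members, so the scores are given as a description and without a test.

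ATAC-seq was performed on LNCaP cells, an androgen-sensitive human prostate cancer line labelled wild type, and on LNCaP-resistance cells, a line derived from LNCaP and labelled as treated with enzalutamide, an androgen receptor antagonist. The study derived its resistant sublines by moving LNCaP into charcoal-stripped serum, which is low in androgens, and raising the drug step by step. It compares the accessibility of the subline LN-35 with that of LNCaP, and also counts differing peaks for each resistant line. The labels of these libraries name no subline. The labels give 1 serum-supplemented medium for both lines, the study's methods mention the stripped serum for the resistant sublines alone, and the medium at harvest can therefore not be stated. Each line gave 2 libraries, labelled repeat 1 and repeat 2, and no source used here says whether the repeats were separate cultures, so a spread between them may be technical.

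ATAC-seq uses a transposase that inserts preferentially into open, nucleosome-poor DNA, and a summit marks the position where insertions pile up most. Promoters of genes that most cells transcribe usually keep such an open stretch just upstream of the start, often within a CpG island. Sequence-specific factors of broad expression bind there, among them the trimeric factor NF-Y at CCAAT boxes, SP and KLF proteins at GC boxes, ETS proteins, NRF1 and the zinc finger protein ZNF143. Enhancers, which lie away from starts, differ far more between cell states.

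The libraries differed in length, with 117245 and 107344 summits in LNCaP and 70866 and 45618 in LNCaP-resistance. The lowest score at or above percentile 90 was 39.0 in LNCaP replicate 1, 33.1 in LNCaP replicate 2, 69.6 in LNCaP-resistance replicate 1 and 44.1 in replicate 2, so a percentile and not a raw score was compared between libraries. Replicate 2 of LNCaP-resistance stood apart as the shortest list. Without it the rule kept 4165 regions, of which 77.5% rather than 83.6% lay near a gene end. In the other direction, the members made up 26.3% and 28.7% of the top 10% of the LNCaP libraries and 43.5% and 67.5% of the top 10% of the LNCaP-resistance libraries. Of the luminal and androgen receptor target genes used to check the label, 26 of 28 had a shared region within 3 kb of an end. So did 12733 of all 20037 protein-coding genes, 30 of 32 proteasome subunit genes and 16 of 19 neuroendocrine genes. By itself this count is therefore no check of the label. The lines had no common order over the 26 luminal and androgen receptor target genes. Percentiles of both LNCaP-resistance libraries were above both LNCaP libraries at 7, below at 9 and overlapping at 10. Over all shared regions 17.7% were above and 41.8% below. KLK3, which encodes prostate-specific antigen, was above (percentiles of 4.79 and 3.46 in LNCaP, 82.7 and 60.6 in LNCaP-resistance), and SPDEF, an ETS factor of luminal cells, was below (percentiles of 90.1 and 95.3 in LNCaP, 65.4 and 51.5 in LNCaP-resistance). Each gene is represented here by a single shared region. Regions without a summit in every library are left out, so these percentiles do not describe the whole of a gene's locus.

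Promoters of highly ranked members are shown first. They are the 150 bases before the start for the 8 highest-ranked members whose nearest listed start was that of a protein-coding gene and whose mean summit lay inside its start window, that is, the stretch from 250 bases before to 50 bases after a gene start. Members were ranked by the mean of their 4 score ranks. Sequences are RefSeq, build GRCh38.p14, written 5′ to 3′ on the strand of the gene. Capitals mark CCAAT on either strand (read as ATTGG on the other) and, in ZFYVE1 and FAM185A, the ZNF143 core (ACA, any 2 bases, TCCCAG) or its reverse complement.
ZFYVE1 (chr14:73027107-73027256, - strand): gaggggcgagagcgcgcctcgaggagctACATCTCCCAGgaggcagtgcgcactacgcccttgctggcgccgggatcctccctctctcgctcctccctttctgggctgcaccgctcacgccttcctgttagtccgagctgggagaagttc
RBM27-POU4F3 (chr5:146203455-146203604, + strand): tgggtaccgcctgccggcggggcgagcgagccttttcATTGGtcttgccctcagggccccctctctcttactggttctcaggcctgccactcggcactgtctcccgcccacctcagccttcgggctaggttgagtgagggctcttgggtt
BPGM (chr7:134646703-134646852, + strand): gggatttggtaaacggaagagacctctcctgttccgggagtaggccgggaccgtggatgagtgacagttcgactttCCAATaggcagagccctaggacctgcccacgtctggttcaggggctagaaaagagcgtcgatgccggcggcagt
TIMM17A (chr1:201955353-201955502, + strand): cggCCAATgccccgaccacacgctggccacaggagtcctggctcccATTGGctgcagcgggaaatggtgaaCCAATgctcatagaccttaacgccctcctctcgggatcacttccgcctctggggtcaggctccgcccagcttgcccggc
HYCC1 (chr7:23014131-23014280, - strand): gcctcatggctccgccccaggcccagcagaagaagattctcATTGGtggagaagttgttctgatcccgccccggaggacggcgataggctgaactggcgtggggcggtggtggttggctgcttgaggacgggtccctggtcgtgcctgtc
FAM185A (chr7:102748849-102748998, + strand): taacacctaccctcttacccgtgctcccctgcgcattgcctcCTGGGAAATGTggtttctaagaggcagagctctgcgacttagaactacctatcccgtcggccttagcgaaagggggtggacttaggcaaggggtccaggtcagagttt
DHODH (chr16:72008594-72008743, + strand): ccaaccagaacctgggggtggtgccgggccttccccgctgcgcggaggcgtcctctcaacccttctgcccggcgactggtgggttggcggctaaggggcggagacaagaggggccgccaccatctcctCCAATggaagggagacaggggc
TMEM167A (chr5:83077395-83077544, - strand): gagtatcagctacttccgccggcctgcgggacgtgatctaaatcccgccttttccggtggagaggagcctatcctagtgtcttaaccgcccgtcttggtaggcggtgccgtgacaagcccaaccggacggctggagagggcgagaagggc

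Among these 8 promoters, 5 held a CCAAT, 2 held a ZNF143 core and no CCAAT, and TMEM167A held neither. The 3 copies in TIMM17A lay at -145, -102 and -77 bp from the start, counted to the middle of the motif, and its mean summit lay at -71 bp. In BPGM the copy lay at -72 bp and the mean summit at -123 bp.

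By construction the highest-ranked members were strong in both lines. At ZFYVE1, which encodes a FYVE-domain protein of the endoplasmic reticulum, the scores were 115 and 101 in LNCaP and 189.95 and 120.1 in LNCaP-resistance. At TIMM17A, a subunit of the translocase of the inner mitochondrial membrane, the scores were 98.8 and 97.6 in LNCaP and 181 and 126 in LNCaP-resistance. At DHODH, an enzyme of pyrimidine synthesis, they were 101 and 86.1 in LNCaP and 191 and 106 in LNCaP-resistance. Both LNCaP-resistance scores were above both LNCaP scores at these 3 promoters, as the scores at percentile 90 were. The other members among the first 10 at protein-coding starts were those of DESI2, EDEM3, which acts in the degradation of misfolded glycoproteins, the readthrough gene RBM27-POU4F3 at the start of RBM27, BPGM, a red-cell enzyme of bisphosphoglycerate metabolism, HYCC1, METTL13, a methyltransferase, and FAM185A. The lowest percentile over the 4 libraries was 99.787 or more in each of these 10. Also among the first 4 over all members were a region 487 bp downstream of the start of the noncoding gene LOC105372309 and a region 38 bp from an end of the pseudogene ZNF56P, both on chromosome 19, at 12801 and 43424 bp from the nearest protein-coding start in the table.

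**Figure D1:**
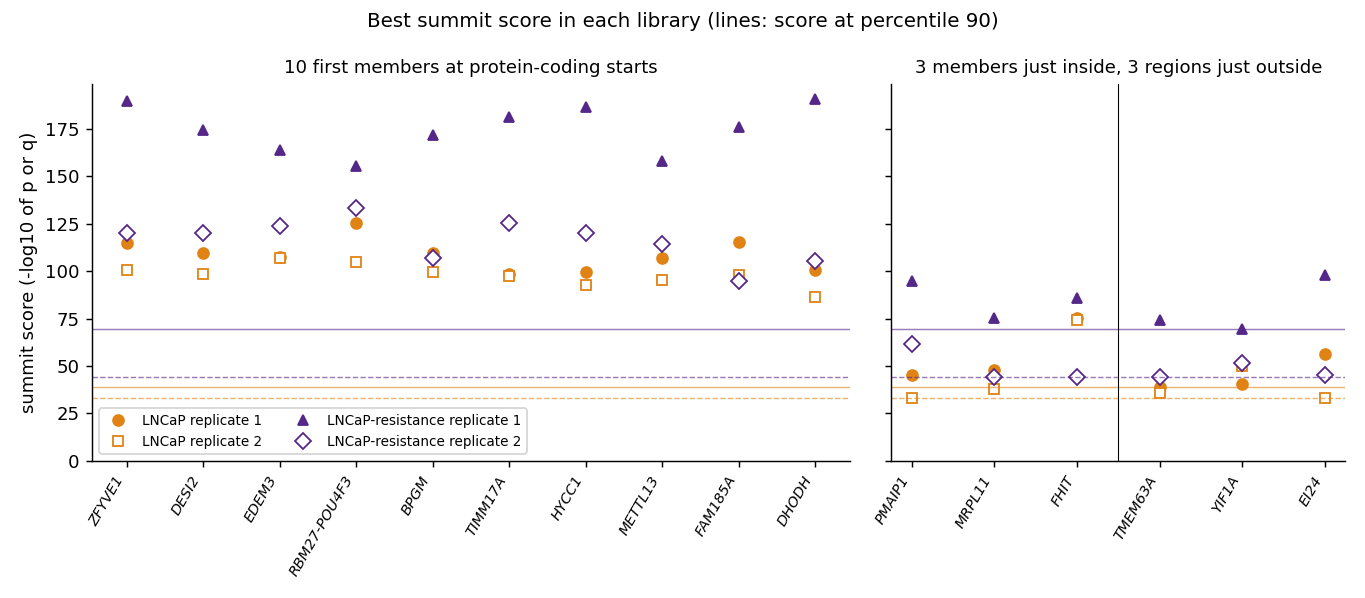
Best summit score (vertical axis, −log10 of p or q) of named regions in each of the 4 libraries, one point per library, with a line at the score of percentile 90 of each library. The 10 first members at protein-coding starts lie far above their own library's line in all 4 libraries, and the 6 regions at the threshold touch the line of at least 1 library.

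The threshold separated regions of nearly equal score. The 3 members just inside it lay at PMAIP1, which encodes the pro-apoptotic protein NOXA, at MRPL11, a mitochondrial ribosomal protein, and at FHIT, with lowest percentiles of 90.0013, 90.0018 and 90.004. The 3 regions just outside lay inside TMEM63A and at the starts of YIF1A and EI24, with lowest percentiles of 89.991, 89.992 and 89.999. FHIT was close to the threshold in 1 library only, with scores of 75.4 and 74.4 in LNCaP, 85.7 in LNCaP-resistance replicate 1 and 44.1 in replicate 2. A further 1692 regions were in the top 10% of exactly 3 libraries, and 1091 of them missed it in LNCaP-resistance replicate 2 alone. In 1672 of the 1692 the remaining library still held a summit, of lower score.

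Members lay mostly at genes. Of the 3080, 2576 (83.6%, 95% Wilson interval 82.3 to 84.9) had their mean summit within 3 kb of an end of an annotated gene, against 46.3% of the other shared regions (45.7 to 46.9) and 29.9% of all regions. At a listed gene start, within 1 kb, lay 74.3% of members (72.7 to 75.8), 27.2% of the other shared regions and 12.1% of all regions. These intervals cover counting error only, and regions are not replicates of a cell line. Regions in the top 10% of one line alone were set beside them, and these are by definition weaker in the other line. Of the 4328 that were in the top 10% of both LNCaP libraries and of neither LNCaP-resistance library, 26.0% were near a gene end, and of the 583 with the opposite pattern 70.8% were. Members thus lay near gene ends more often than either set.

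The share near a gene end also differed between the lines for the strongest 10% of each library, of which the members are a part. It was 48.6% and 49.6% in LNCaP and 74.4% and 82.4% in LNCaP-resistance, giving 49.1% ± 0.669 and 78.4% ± 5.65 (SD, n = 2 libraries each). This gap, 29.3 percentage points, exceeded either spread and was 25.8 within repeat 1 and 32.8 within repeat 2. An exact two-sided permutation test of 2 libraries against 2 cannot give a p below 0.333, so none was run. List length moved with this share, the shorter lists having the higher values, and its part was not tested.

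**Figure D2:**
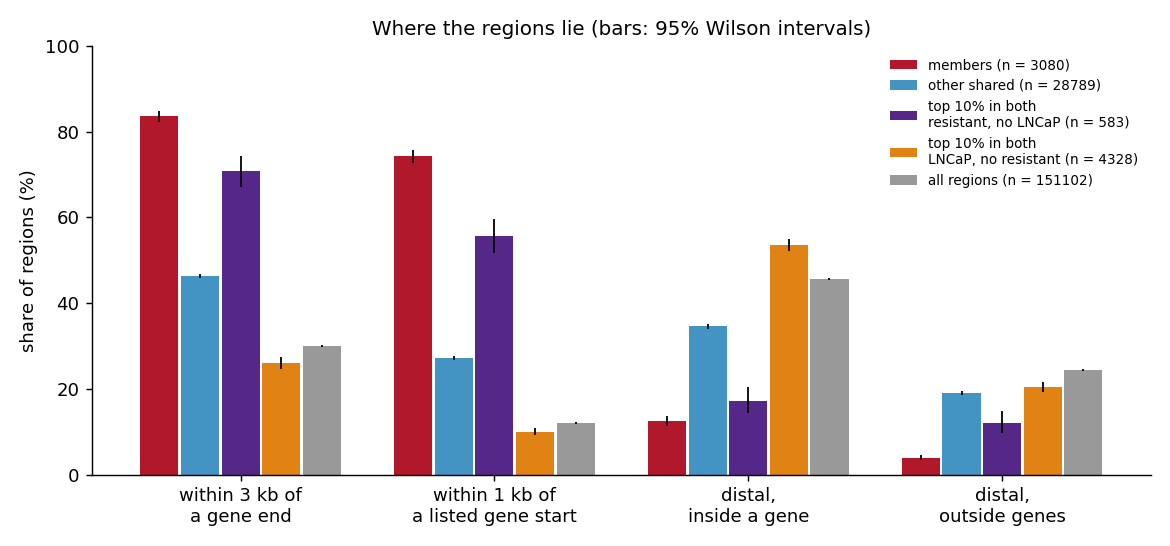
Share of regions in percent (vertical axis) near a gene end, at a listed gene start, distal inside a gene and distal outside genes, for members, other shared regions, the top 10% of one line alone and all regions, with 95% Wilson intervals. Members reach 83.6% and 74.3% in the first 2 groups and have the lowest shares of distal regions, 12.4% and 3.93%.

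Among members at a gene start, 31.8% (29.95 to 33.8) had starts on both strands within 1 kb, as at the MRPL32 and PSMA2 pair, against 21.7% (20.8 to 22.6) of the other shared regions at a start. In the set strong in LNCaP-resistance alone, as defined above, the share was 29.2% (24.6 to 34.4), an interval that overlaps that of members. In the set strong in LNCaP alone it was 21.2% (17.7 to 25.3). Starts on both strands were thus not particular to members. The summits of members lay close together. The best summits of the 4 libraries spanned a median of 39 bp in a member and 56 bp in another shared region. At most 1 summit in each library was held by 96.2% of members, 89.0% of other shared regions and 95.4% of all regions. The member share was thus near that of all regions. The span without any 1 library was 26 to 29 bp, since it grows with the number of libraries. The exceptions with most summits were the regions at FNBP4 (9 summits), TXNDC12 and BRPF1 (8 each). Summit position was not used to choose the members.

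Members sat upstream of the start rather than on it. Relative to the nearest protein-coding start within 1 kb, the mean summit of a member had a median offset of -66 bp (quartiles -125 and -27 bp), against -38 bp (-106 and 47 bp) in the other shared regions. It was upstream in 85.0% of members (83.4 to 86.4) and in 65.5% of the others (64.3 to 66.6). B2M, the light chain of MHC class I, and THNSL1 lay close to the start, at -25 and -1 bp, and DESI2 lay at -314 bp.

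**Figure D3:**
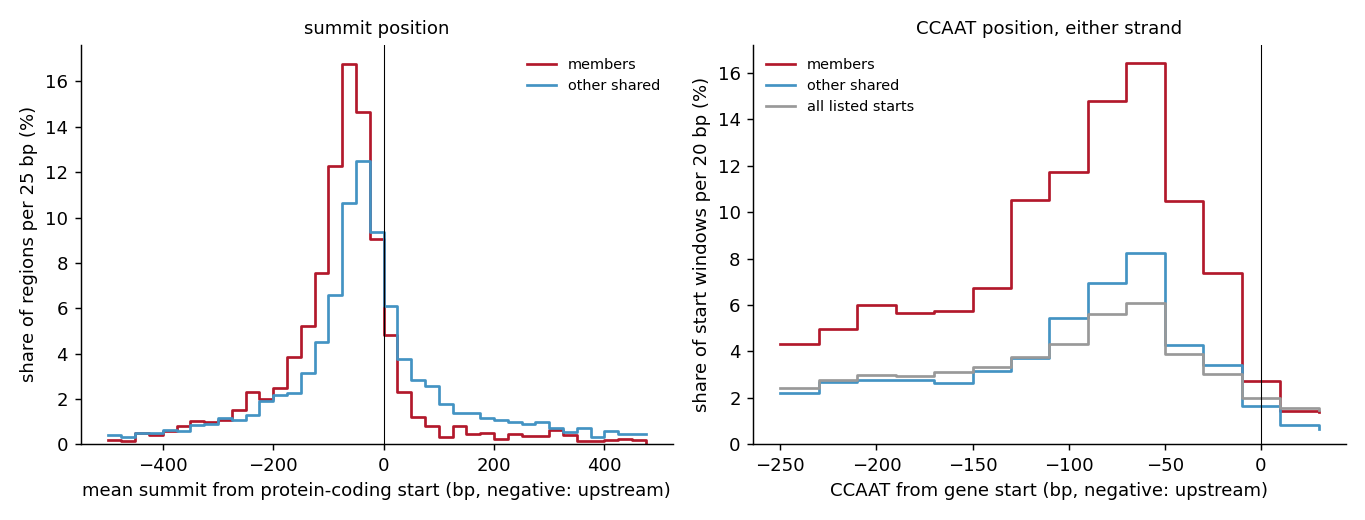
Left, share of regions per 25 bp (percent) by distance of the mean summit from the nearest protein-coding start, negative values being upstream. Right, share of start windows per 20 bp (percent) with a CCAAT at that distance from the gene start. Members peak sharply upstream in the left plot, and in the right plot the curve of members exceeds that of other shared regions over the whole upstream stretch.

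CCAAT was the motif that set member promoters apart by the largest number of percentage points. Of the 3080 members, 1898 had the mean summit inside a start window, which spans 300 bases in all. CCAAT, the NF-Y element, stood on either strand in 1100 of these windows (58.0%, 55.7 to 60.2), against 1730 of 4888 windows of other shared regions (35.4%, 34.1 to 36.7) and 34.6% of all 35116 start windows in the table. At least 2 copies were present in 31.8% of member windows, 11.9% of other shared windows and 10.8% of all windows. Taking every start window that a region overlapped, a choice made after the data were seen, gave 53.2% for members.

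Other motifs differed less or not at all. The ETS core CCGGAAG was found in 28.8% of member windows, 19.7% of other shared windows and 10.3% of all windows. The ZNF143 core, added after the sequences had been seen, was in 6.85% (5.80 to 8.08) of member windows, 2.78% (2.36 to 3.28) of other shared windows and 1.65% of all. The GC box GGGCGG had nearly the same share in members and other shared regions, 74.3% and 73.2%, and both were above the 45% of all windows. Rarer in members than in other shared regions were the NRF1 motif, GCGC followed by any base and TGCGC (9.22% against 12.0%) and TATAAA (2.85% against 5.01%), and TATAAA was in 11.53% of all windows. The remaining motifs lay within 2 percentage points of each other in the 2 sets, namely the form of the NRF1 motif with A as the free base (1.48% against 2.45%), the CRE TGACGTCA (3.21% against 3.78%), the E-box CACGTG (8.96% against 10.3%), AAGATGGC of YY1 (6.11% against 5.24%) and TGANTCA of AP-1 (3.64% against 4.62%). All motifs were searched on both strands, and a match is a string of letters, not a measured binding site.

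CCAAT was then compared between windows of like CpG number. Member windows held a median of 25 CpG and other shared windows 28, with all windows at 14. Member windows were thus richer in CpG than all windows, but not richer than other shared windows. CCAAT was in 53.7% of member windows with 0 to 9 CpG against 42.5% of other shared windows, where the intervals overlap. With 10 to 19 CpG it was in 70.3% against 42.0%, with 20 to 29 in 58.0% against 37.8%, and with 30 or more in 49.4% against 29.9%. The boxes lay near the summits. In 35.8% of member windows a CCAAT lay 50 to 110 bp upstream of the start, against 17.8% of other shared windows and 14.3% of all windows. Of the CCAAT copies themselves, 38.87% in member windows and 39.96% in other shared windows lay in this stretch. The median positions of the copies were -91.5 and -89.5 bp from the start. These window shares therefore show no difference in position relative to the start between members and other shared regions. Where a window held a CCAAT, the nearest copy was within 50 bp of the mean summit in 72.1% of members (69.4 to 74.7) and 55.6% of other shared regions (53.3 to 57.9). Member windows more often held at least 2 copies, and the nearest of several lies closer by number alone. The part of copy number in this difference was not tested.

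Across all shared regions, the CCAAT share was higher in each class of the lowest percentile above 80 than in the class before. Below that it had no steady trend, with 26.7% up to percentile 20, 33.1% from 20 to 40, 28.7% from 40 to 60 and 33.3% from 60 to 80. It was then 42.7% from 80 to 90, 49.6% from 90 to 95, 61.9% from 95 to 98 and 75.8% (70.7 to 80.2) above 98. The ZNF143 core went from 1.81% in the first of these classes to 10.97% in the last, while NRF1 was highest at 14.1% from 60 to 80 and was 4.19% above 98. The ETS core reached 26.4% from 80 to 90 and 29.0% above 98, and the GC box stayed between 65.2% and 75.7% throughout. The share at a gene start rose from 11.2% to 78.7% and the median span of the summits fell from 96.5 to 37 bp. In each library taken alone, CCAAT was in 51.5% and 52.3% of the start windows of the top 10% in LNCaP and in 52.2% and 54.7% in LNCaP-resistance, against 30.3% to 33.3% in the rest of each list. Windows of regions in the top 10% of LNCaP alone held it in 37.9% and those of LNCaP-resistance alone in 49.0%.

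**Figure D4:**
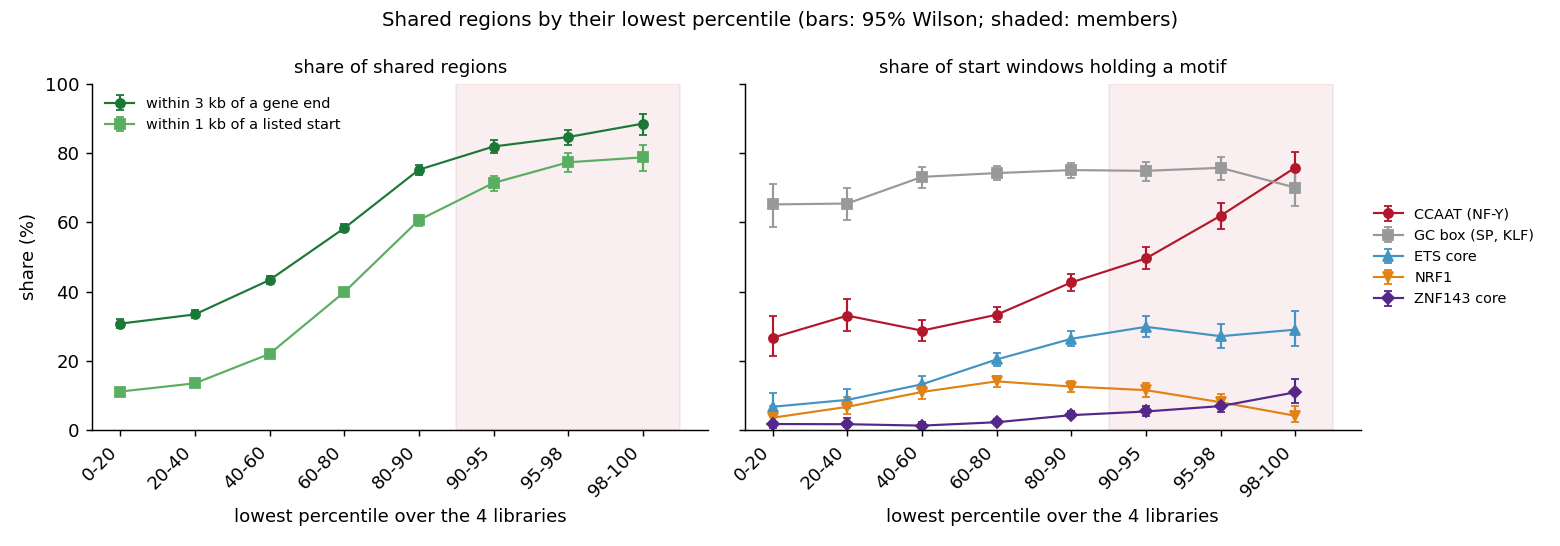
Shared regions grouped by their lowest percentile over the 4 libraries (horizontal axis), with the share in percent near a gene end and at a start (left) and the share of start windows with each motif (right), and 95% Wilson intervals. The CCAAT curve climbs to 75.8% within the shaded member classes, where the ETS curve stays between 27.1% and 29.9%.

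Genes at which members lay were then counted by function. Of 15843 protein-coding genes with a start in the table, 2521 (15.9%) had a member within 1 kb of a start, and of all 20037 protein-coding genes 3017 (15.1%) had one within 3 kb of either end. Core spliceosome genes, which encode the machinery that removes introns, had a member at the start in 14 of 38, proteasome subunit genes in 7 of 27, CTCF and cohesin genes in 3 of 12, and reference genes often used as stable controls in 3 of 15. Translation factors (5 of 28) and cytosolic ribosomal proteins (9 of 63) had shares near the background. The shares of CTCF and cohesin genes and of reference genes rest on 3 genes each, too few to set them apart from the 15.9%. That of the proteasome rests on 7 genes. No interval was computed for the lists, so it is not set apart from the 15.9% here either. The 3 CTCF and cohesin regions were also each nearer to the start of another gene, namely SUGP1, STAG1-DT and CTCF-DT. Of the 63 ribosomal protein genes, 60 had a shared region at the start, beside 9531 of the 15843 protein-coding genes. RNA polymerase II subunits had a member at 0 of 8 starts, but 3 of 12 had one within 3 kb of an end.

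Members of the lists ranged in strength. PSMA5, a 20S proteasome subunit, had scores of 92.9 and 79.97 in LNCaP and 138 and 99.6 in LNCaP-resistance, the highest-ranked of the genes of these lists. SF3B2, of the U2 snRNP, had 77.4 and 73.3 in LNCaP and 118 and 75.7 in LNCaP-resistance. B2M had 58.7 and 61.4 in LNCaP and 116 and 73.0 in LNCaP-resistance. All values of LNCaP-resistance replicate 1 were the highest of their gene, as that list had the highest scores. The 3 promoters, of which PSMA5 and B2M held a CCAAT and SF3B2 an ETS core, read as follows in the same form, with capitals for CCAAT on either strand.
PSMA5 (chr1:109426449-109426598, - strand): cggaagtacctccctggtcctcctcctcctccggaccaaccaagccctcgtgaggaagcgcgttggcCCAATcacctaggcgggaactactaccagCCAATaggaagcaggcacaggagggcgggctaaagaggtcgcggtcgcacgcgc
SF3B2 (chr11:66052214-66052363, + strand): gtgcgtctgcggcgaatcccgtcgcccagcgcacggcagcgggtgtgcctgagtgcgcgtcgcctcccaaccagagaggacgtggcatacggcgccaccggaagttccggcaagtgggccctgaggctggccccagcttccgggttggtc
B2M (chr15:44711367-44711516, + strand): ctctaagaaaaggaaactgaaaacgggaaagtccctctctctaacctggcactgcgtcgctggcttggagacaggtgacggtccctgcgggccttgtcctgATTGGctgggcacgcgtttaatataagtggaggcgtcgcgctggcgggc

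Also with members at their starts were PSMC4, PSMB3 and PSMA2 of the proteasome, SNRPF, PRPF8 and SNRPE of the spliceosome, RPS27A, RPSA, RPL27 and RPS13 of the ribosome, EIF3M, EIF4G2, EIF4A1 and EIF2S1 of translation, MAU2, STAG1 and CTCF of the cohesin system, and TBP and HSPA8. Their lowest percentiles ran from 91.3 at STAG1 to 99.6 at PSMC4. Some of these regions were nearer to another start, as at RPS27A, 11 bp upstream of CLHC1, at MAU2, 9 bp inside SUGP1, and at EIF2S1, 52 bp upstream of ATP6V1D, so the region cannot be assigned to 1 gene.

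Immediate early genes, which respond to signals within minutes, had no member. None of 23 immediate early genes with a listed start had a member there, beside 15.9% of all protein-coding genes. None of 32 had one within 3 kb of an end, beside 15.1%. A shared region was near an end of 29 of the 32, and of 12733 of all 20037 protein-coding genes. The strongest was SRF, with percentiles of 95.9, 96.5, 92.5 and 89.7. Of the luminal and androgen receptor list, 0 of 19 had a member at the start, beside the same 15.9%. Within 3 kb of an end 3 of 28 (10.7%) had one, beside 15.1% of all protein-coding genes. KRT8 and KRT18, neighbouring luminal keratin genes, shared 1 member with scores of 49.1 and 43.3 in LNCaP and 97.5 and 58.4 in LNCaP-resistance. GRHL2, an epithelial transcription factor, had scores of 44.9 and 34.7 in LNCaP and 100.04 and 80.6 in LNCaP-resistance. Of the neuroendocrine list, ONECUT2 alone had a member at its start, 1 of 10 beside 15.9% of all genes, with scores of 43.0 and 48.2 in LNCaP and 104.5 and 52.4 in LNCaP-resistance. Its percentiles of 92.3 and 96.8 in LNCaP overlapped the 97.4 and 93.7 in LNCaP-resistance.

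**Figure D5:**
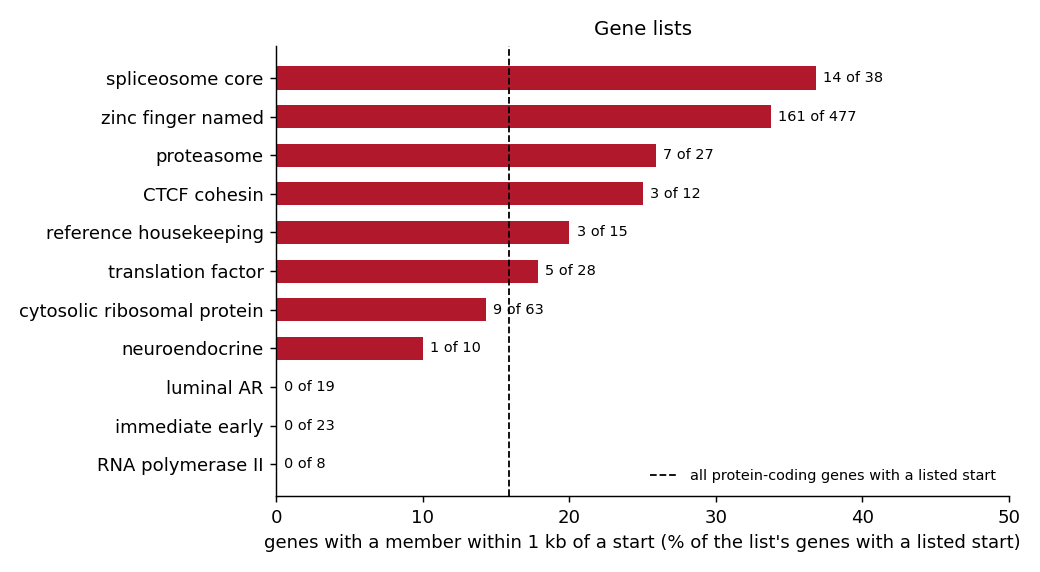
Percent of the genes of each list that had a member within 1 kb of a start (horizontal axis), with counts beside the bars and a dashed line at the 15.9% of all protein-coding genes with a listed start. Spliceosome and zinc finger genes lie above the line, and luminal, immediate early and RNA polymerase II genes are at 0.

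Zinc finger genes were a large family among members, a group chosen after its values had been seen. Of 477 genes named ZNF, ZSCAN, ZKSCAN or ZFP with a number and with a listed start, most of them encoding C2H2 proteins of which many carry a KRAB repressor domain, 161 (33.8%) had a member at the start, and 396 had a shared region there. On chromosome 19, where many of these genes are clustered, 92 of 228 had one (40.4%), against 107 of 957 other protein-coding genes of that chromosome (11.2%) and 69 of 249 zinc finger genes elsewhere (27.7%). ZNF195 was the highest ranked, with scores of 118 and 96.4 in LNCaP and 180 and 77.8 in LNCaP-resistance, so that the lowest and the highest score both came from LNCaP-resistance. ZNF564 and the divergent pair ZSCAN32 and ZNF174, which share 1 region, followed. Start windows of zinc finger members held CCAAT in 62.9%, the ETS core in 43.9% and the ZNF143 core in 16.7%, against 57.6%, 27.7% and 6.12% in the other member windows. The ETS and ZNF143 shares were almost as high in zinc finger windows of other shared regions, at 41.0% and 15.0%, where CCAAT was in 42.2%.

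The members were spread over all chromosomes. Chromosome 19 had the highest share, with 238 members among 1568 shared regions (15.2%), followed by chromosomes 14 (12.2%), 7 (12.0%) and 1 (11.54%), and among the autosomes and X the lowest shares were those of X (6.35%), 21 (6.48%) and 18 (6.97%). A single member lay on an unplaced scaffold and was counted as distal.

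Distal members were few. Over 3 kb from either end of every annotated gene lay 504 members (16.4%, 15.1 to 17.7), 383 of them inside a gene and 121 outside genes, against 53.7% of the other shared regions. Of the 504, 145 (28.8%) were at a listed start nonetheless, since a gene can have a start inside its outermost ends, against 4.14% of the distal other shared regions. Over 3 kb from every end and every start lay 354 members. The summits of distal members spanned a median of 36 bp, against 53 bp in the distal other shared regions.

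Of the 10 highest-ranked distal members, 5 were at such internal starts, those of CCDC30, RUVBL1, PTPRE, THNSL1 and NEMP1. The region at CCDC30 also lay inside the coenzyme A synthesis gene PPCS. RUVBL1 is an AAA+ ATPase of chromatin remodelling complexes, PTPRE a tyrosine phosphatase and NEMP1 a protein of the inner nuclear membrane. At RUVBL1 the scores were 89.5 and 91.5 in LNCaP and 165 and 95.5 in LNCaP-resistance. The first of all lay at chr7:64307145-64307655 (hg38), 6561 bp upstream of the start of ZNF736 and 3076 bp downstream of the start of the noncoding gene LOC105375322, with scores of 97.0 and 92.3 in LNCaP and 155 and 105 in LNCaP-resistance. The others were at chr1:183159873-183160388, 14536 bp beyond the end of the laminin gene LAMC1, at chr2:74845309-74845820 inside HK2, which encodes the glycolytic enzyme hexokinase 2, at chr16:29943940-29944466 between KCTD13-DT and TMEM219, and at chr1:230186001-230186512 inside GALNT2. At the region beyond LAMC1 the scores were 86.6 and 86.2 in LNCaP and 179 and 92.7 in LNCaP-resistance, with all 4 summits within 15 bp. At the region inside HK2 they were 89.3 and 85.4 in LNCaP and 150.2 and 81.4 in LNCaP-resistance, within 11 bp. Among the remaining members away from every end and start, the highest ranked outside genes were near OR1D5 and RAP1GAP2, near the pseudogene CICP17, 13467 bp upstream of LBH and 16301 bp upstream of DYNC1H1. The sequences of the distal members were not analysed here.

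Within the members, rank still varied between libraries. Spearman's rho of the scores over the 3080 members, a description since the regions share libraries and a restricted range, was 0.75 between the LNCaP libraries, 0.60 between the LNCaP-resistance libraries and 0.45 to 0.58 across lines. The median change in percentile, LNCaP-resistance minus LNCaP, was -0.38 over all members, within the pooled SD of 0.589 of the library medians. It was -0.11 within repeat 1 and -0.63 within repeat 2, and with the same number of summits taken from each list, which keeps 1686 members, it was 0.45, so no direction can be given. Both LNCaP-resistance libraries were above both LNCaP libraries in 506 members (16.4%) and below them in 899 (29.2%), where over all shared regions the percentages were 17.7 and 41.8. Distal members had a median change of -1.07 (-0.36 within repeat 1 and -1.74 within repeat 2) and members near a gene end -0.27 (-0.07 and -0.48).

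The widest changes stayed small on this scale, because every member is above percentile 90 in all libraries. A region inside KDM4B, a histone demethylase gene, had scores of 74.7 and 75.8 in LNCaP and 70.4 and 46.9 in LNCaP-resistance, and its percentile fell by 8.70. A region inside ATP9B and one 7428 bp upstream of MRFAP1 came next, and their percentiles fell by 8.62 and 8.23. In the other direction, the region at the start of the noncoding gene LINC02226 had scores of 39.3 and 34.5 in LNCaP and 145 and 81.3 in LNCaP-resistance, a rise in percentile of 8.96. LINC02901 and a region inside ZNF568 rose by 7.52 and 7.16. In each of these 6 regions the percentiles of the lines did not overlap, and the regions were picked for that difference.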

How the data were processed

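ATAC-seq libraries of LNCaP and LNCaP-resistance cells (2 each) were represented by lists of summits. Per the deposited files, each line gives a position and a score, −log10 of the p or q value that MACS2 assigned. Which of both it is was not given in the sources used here. The submitters' processing notes name Bowtie2 2.2.5, SAMtools 1.6, MACS2 2.2.6 and build hg38. Read counts are not in the lists. The depth is therefore unknown, no interval could be based on reads, and a score moves with depth and with the number of summits called. Peaks were called per library, as far as the lists show.

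Regions, percentiles and members were computed with Python 3.11.15, pandas 2.3.3, NumPy 2.4.6 and SciPy 1.17.1. Positions were compared with RefSeq genes and start windows of GRCh38.p14. All 313 listed genes matched by symbol, and 243 had a listed start. Genes were named by a fixed rule, the first 10 at protein-coding starts and the first 10 distal by mean rank, up to 4 for each list, the 3 just inside and just outside, the 3 largest changes each way and the 3 with most summits. Any other named gene was chosen after its values were seen. The members and lists were chosen with earlier results of these data known, so no test was run. Shares carry 95% Wilson intervals, except those of gene lists and gene families. Merging of windows, the choice of members and the distance to a start were tested on simulated lists with planted summits made strong enough to pass. The motif and gene counts were not tested in this way. Alternatives were windows of 100 and 500 bp, percentiles 80 and 95, a lowest score of 10, equal numbers of summits, leaving out each library, protein-coding genes alone and other distances.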

Additional observations from a re-analysis of the deposited data

How the results depend on the processing

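Of 117 alternative values for 10 results, 70 stayed within 1.5 times the count, or within the interval or the spread between replicates of the reported value, and 47 moved. Counts followed the threshold, from 3080 members and 2521 genes with a member at the start to 6664 and 4781 at percentile 80, 1404 and 1211 at percentile 95, 1555 and 1340 with scores of at least 10, and 1686 and 1358 with equal numbers of summits. Leaving out 1 library gave 3178 to 4165 members and 2596 to 2983 genes, the highest without LNCaP-resistance replicate 2. The share near a gene end was 79.0% at percentile 80, 85.8% at percentile 95 and with scores of at least 10, 77.0% for protein-coding genes alone and 80.6% within 1 kb, and 77.5% to 83.8% without 1 library. The distal share was then 21.0%, 14.2%, 14.2%, 23% and 19.4%, and 16.2% to 22.5% without 1 library. The share at a start was 66.9% at percentile 80, 77.7% at percentile 95, 77.6% with scores of at least 10 and 71.0% for protein-coding genes, and 66.4% to 74.3% without 1 library. The difference from other shared regions near a gene end, 37.3 points, stayed positive in all 12 alternatives, at 39.7 with windows of 100 bp, 25.5 with scores of at least 10, 29.8 with equal numbers, 42.2 for protein-coding genes, 45.7 within 1 kb and 37.6 to 38.4 without 1 library. The median span was 35 bp with windows of 100 bp, 42 at percentile 80, 36 with equal numbers and 26 to 29 without 1 library.

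The CCAAT share, whose alternatives were chosen after seeing the data, was 50.8% at percentile 80, 66.5% at percentile 95, 65.1% with scores of at least 10, 65.6% with equal numbers, 53.2% over every overlapped start window and 56.0% to 57.7% without 1 library. Its difference from other shared regions, 22.6 points, was 19.1, 28.8, 26.2 and 26.6 in the first 4 of these and 22.0 to 22.8 without 1 library. The median change in percentile turned from -0.38 to 0.45 with equal numbers of summits and was -0.72 to -0.24 without 1 library. Paired by repeat (replicate block), it was -0.11 and -0.63. The causes of these moves were not tested. Without read counts, a region missed in a short list cannot be told from one that was less open.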

Other observations

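Gene families grouped by the letters of their symbol, each with at least 25 protein-coding genes and looked at after the values were known, differed widely in how many had a member within 3 kb of an end, where all protein-coding genes gave 15.1%. Small-subunit proteins of the mitochondrial ribosome (MRPS) had one in 14 of 28 and all 28 had a shared region, while large-subunit proteins (MRPL) had one in 11 of 49. Genes named CEP, most of them centrosomal, had one in 18 of 39, the general transcription factor genes named GTF in 9 of 26, VPS genes of vesicle sorting in 12 of 35, Mediator subunits (MED) in 10 of 30 and RNA-binding motif genes (RBM) in 13 of 39. At the other end, olfactory receptor genes (OR) had 0 of 392, with a shared region at 12, and keratin-associated protein genes (KRTAP) 0 of 94, with a shared region at 3. Collagen genes (COL) had 0 of 44, with a shared region at 24, and histone genes had 1 of 95, with a shared region at 56. Of all 20037 protein-coding genes, 12733 had a shared region within 3 kb of an end.

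Noncoding genes had fewer members. Of 18303 long noncoding RNA genes 786 (4.29%) had one within 3 kb of an end, of 443 tRNA genes 10 (2.26%), of 1913 miRNA genes 51 (2.67%) and of 154 snRNA genes 11 (7.14%). These genes often lie next to protein-coding starts, and the 2 were not separated here.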
